A study of Mus musculus with 32 samples.

Results

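Mismatch repair genes that act on the length of expanded CAG repeats were followed in the mouse striatum. The genes are Msh3, Msh6, Mlh3, Pms1, Pms2, Exo1 and Pcna, taken by symbol from a list of mismatch repair and somatic expansion genes and matched to the gene identifiers of the deposited count table through the GENCODE M21 annotation. All 7 were found among the 54532 genes of the table, and all 7 were among the 16610 genes with enough counts to be tested.

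Striatum came from 32 mice aged 6 months, with 8 per genotype: WT, Msh3-/-, zQ175 and zQ175:Msh3-/-. Each genotype had 4 males and 4 females, except zQ175:Msh3-/- with 5 males and 3 females, and all mice were kept on a C57BL/6J background. The zQ175 allele is a knock-in of an expanded CAG repeat into the mouse huntingtin gene, Htt. The Msh3-null allele was made by genome editing with guide RNAs directed to exons 3 and 8 of Msh3, and it is present in all tissues rather than in striatal cells alone. RNA was selected for polyA tails before sequencing, and the total count per mouse ran from 12359347 to 25030335 with a median of 16700247. The samples are pieces of tissue that mix many cell types, so for any gene below, fewer cells of a type and less RNA per cell cannot be told apart. Levels of different genes were compared in TPM, which corrects for transcript length and sequencing depth, and differences between genotypes were tested on counts with edgeR. A gene was called when its p, adjusted over all 16610 tested genes, was under 0.05.

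Mismatch repair corrects errors that DNA polymerases leave behind and also acts on loops that form when repeated DNA slips out of register. MutS proteins recognise the lesion, MutL proteins are recruited to it and can nick a DNA strand, an exonuclease removes the nicked strand, and a sliding clamp coordinates nicking and resynthesis. At long CAG repeats the same machinery can lengthen the repeat instead of restoring it, and in Huntington's disease this somatic expansion is known to be pronounced in the striatum.

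Msh3 was the gene removed by design, and its RNA separated every knockout mouse from every mouse with intact Msh3. Msh3 encodes the MutS protein that serves in recognition of larger loops of unpaired DNA. It lies on the minus strand at chr13:92211872-92355003 of GRCm38 (ENSMUSG00000014850) and has 15 annotated transcripts. The longest of its protein-coding transcripts, Msh3-202, has 24 exons and 3946 bases. Exons 3 to 8 of that transcript hold 958 bases, or 24.3% of its length, all of them coding. The number 958 leaves a remainder of 1 when divided by 3. The published guide target sequences lie inside exons 3 and 8, so parts of these exons may remain in the edited allele. The 958 bases and the remainder describe whole annotated exons and not the edited allele, whose sequence was not examined. The exons at which the guide RNAs were directed are printed here in the direction of transcription. Each exon is in capitals, with 15 bases of each neighbouring exon in lower case. Reads from outside the edited interval may still count toward Msh3. Exon 3 is chr13:92351231-92351451, with 221 bases, and exon 8 is chr13:92342246-92342412, with 167 bases, both on the minus strand of GRCm38.
Msh3 exon 3: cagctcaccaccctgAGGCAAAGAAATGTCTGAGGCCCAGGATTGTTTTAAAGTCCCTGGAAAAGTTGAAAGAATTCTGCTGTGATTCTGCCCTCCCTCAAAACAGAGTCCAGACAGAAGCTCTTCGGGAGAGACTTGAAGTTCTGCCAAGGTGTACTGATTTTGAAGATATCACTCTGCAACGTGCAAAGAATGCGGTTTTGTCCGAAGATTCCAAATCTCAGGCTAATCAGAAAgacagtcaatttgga
Msh3 exon 8: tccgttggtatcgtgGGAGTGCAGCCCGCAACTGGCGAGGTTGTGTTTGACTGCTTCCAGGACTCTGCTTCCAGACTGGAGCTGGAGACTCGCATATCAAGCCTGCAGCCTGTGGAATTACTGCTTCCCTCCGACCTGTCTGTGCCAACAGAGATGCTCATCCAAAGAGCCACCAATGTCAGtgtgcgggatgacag

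In WT mice, the Msh3 count, scaled to the size of its library (CPM), ran from 22.9 to 27.5 with a median of 23.7. In Msh3-/- mice it ran from 10.4 to 13.6 CPM, with a median of 11.5. The ranges did not overlap, and the highest Msh3-/- library, female2, was well below the lowest WT library, female1. On the zQ175 allele the count ran from 22.8 to 27.4 CPM with a median of 24.1 when Msh3 was intact. It ran from 11.1 to 14.2 CPM with a median of 12.8 in zQ175:Msh3-/- mice. Again no mouse of the knockout group reached the range of its reference group, so the Msh3 RNA of all 32 mice matched their genotype labels. The count is given for the gene as a whole, and where in Msh3 its reads lie was not tested. The remaining RNA is therefore not a measure of intact Msh3 message.

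The log2 fold change of Msh3 in Msh3-/- against WT was -1.06 (95% interval -1.18 to -0.94, adjusted p = 2.6e-15), which left 48.1% of the WT level. In zQ175:Msh3-/- against zQ175 it was -0.92 (95% interval -1.04 to -0.81, adjusted p = 1.4e-13), which left 52.7%. Averaged over the Htt genotypes, Msh3 loss gave a log2 fold change of -0.99 (95% interval -1.07 to -0.91, adjusted p = 2.0e-19). Msh3 was the only gene called in each of these 3 comparisons, where 0.00602% of tested genes were called. In Msh3-/- against WT 846 genes reached an unadjusted p under 0.05, close to the 830.5 that 16610 tests give by chance. DESeq2 called 2 genes in that comparison, and leaving out zQ175 female3 also gave 2.

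The Msh3 reads that were left in knockout mice were also assigned to shorter transcripts on average. The authors' TPM of a gene is its count divided by a transcript length, so the count and the TPM of a gene together give the mean length of the transcripts to which its reads were assigned in each mouse. For 826 genes with a single annotated transcript and at least 100 counts, 98.1% of the lengths found this way were within 2% of the annotated length. For Msh3 the implied length ran from 3058 to 3804 bases in WT, with a median of 3371, and from 2560 to 2944 bases in Msh3-/-, with a median of 2761. It ran from 3200 to 3571 bases in zQ175, with a median of 3394, and from 2430 to 2788 bases in zQ175:Msh3-/-, with a median of 2718. Every knockout mouse had a shorter implied length than every mouse with intact Msh3.

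In limma, the log2 difference of implied Msh3 length was -0.31 in Msh3-/- against WT (95% interval -0.38 to -0.23, adjusted p = 3.9e-05) and -0.33 in zQ175:Msh3-/- against zQ175 (95% interval -0.41 to -0.26, adjusted p = 7.1e-06). Averaged over the Htt genotypes it was -0.32 (adjusted p = 6.1e-09), the smallest p of 11787 genes with at least 2 annotated transcripts. In these comparisons 0.017%, 0.00848% and 0.017% of genes were called, respectively. The other calls were Wbp2 in Msh3-/- against WT (log2 difference 0.02) and Gyg in the averaged comparison (log2 difference -0.02), both named after their values were seen. The zQ175 allele, by contrast, went with a log2 difference in Msh3 length of -0.02 (adjusted p = 0.924), in a comparison where 1.59% of genes were called. Of the 15 annotated Msh3 transcripts, 3 hold all of exons 3 to 8, 6 hold some of these bases, and 6 hold none and are between 534 and 1961 bases long. Which of these transcripts the remaining reads come from was not tested.

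With shorter implied transcripts, Msh3 differed less in TPM than in counts. TPM ran from 14.4 to 18.5 in WT with a median of 17.0, and from 8.16 to 11.2 in Msh3-/- with a median of 10.4. With the zQ175 allele it ran from 16.1 to 18.9 with a median of 17.4 when Msh3 was intact, and from 9.82 to 14.0 with a median of 11.7 when it was not. The groups with and without Msh3 did not overlap in TPM either. In limma on log2(TPM + 0.1) the log2 fold change of Msh3 was -0.75 in Msh3-/- against WT and -0.57 in zQ175:Msh3-/- against zQ175.

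**Figure D1:**
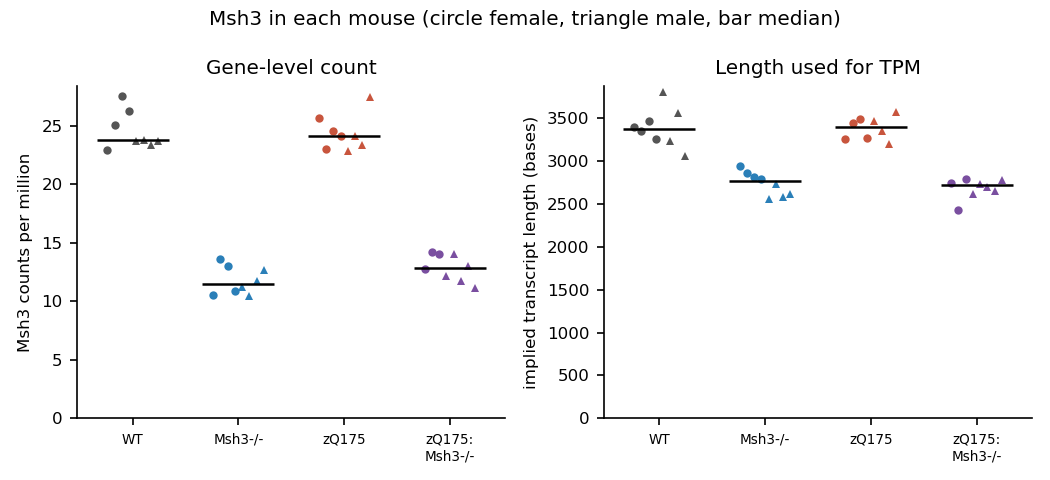
Msh3 in each of the 32 mice, in CPM (left) and as the mean transcript length implied by count and TPM, in bases (right), by genotype, with circles for females, triangles for males and bars for medians of 8 mice. Both quantities were lower in every Msh3-null mouse than in every mouse with intact Msh3.

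Msh6, another MutS gene, was not called with Msh3 loss. Msh6 encodes the MutS protein that serves in recognition of single mispaired bases and small loops, and it lies on the plus strand at chr17:87975062-87990892 (ENSMUSG00000005370). Its TPM ran from 7.53 to 9.71 in WT with a median of 8.65, and from 8.28 to 9.76 in Msh3-/- with a median of 9.13. In zQ175 it ran from 8.75 to 11.4 with a median of 10.0, and in zQ175:Msh3-/- from 8.66 to 11.2 with a median of 9.83. All 4 groups overlapped, with WT male2 and male1 lowest and zQ175 male2 highest. Msh6 shares 34 exon bases with Fbxo11 on the opposite strand, a gene with a median of 2030 counts per mouse. Whether counting used strand is not given in the sources used here, so reads from such overlaps cannot be told apart.

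The MutL genes differed in level but not in order. Mlh3 encodes an endonuclease subunit known for its part in repeat expansion and in meiotic crossing over, and it lies at chr12:85234520-85270599 on the minus strand (ENSMUSG00000021245). Its TPM ran from 15.4 to 17.8 in WT with a median of 16.2, from 14.5 to 18.9 in Msh3-/- with a median of 16.5, from 16.8 to 20.7 in zQ175 with a median of 17.5, and from 16.8 to 20.2 in zQ175:Msh3-/- with a median of 18.7. The ranges overlapped, and Msh3-/- male1, male3 and male2 were the lowest of all 32 mice.

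Pms2 encodes the endonuclease subunit that serves in most mismatch correction, and it lies at chr5:143909964-143933968 on the plus strand (ENSMUSG00000079109). Its TPM ran from 9.11 to 10.3 in WT with a median of 9.69, from 7.84 to 10.6 in Msh3-/- with a median of 9.69, from 8.91 to 12 in zQ175 with a median of 10.3, and from 9.69 to 12.4 in zQ175:Msh3-/- with a median of 11.6. The ranges overlapped here too, and Msh3-/- male4 was the lowest mouse. Pms2 shares 394 exon bases on the same strand with the gene model Gm42421, which had a median of 5.5 counts per mouse.

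Pms1 encodes a MutL subunit with no known nuclease activity, and human PMS1 is a known modifier of Huntington's disease. It lies at chr1:53189187-53297018 on the minus strand (ENSMUSG00000026098). Pms1 had 43 to 105 counts per mouse, and its median TPM was 3.96 in WT, 4.05 in Msh3-/- mice, 3.57 in zQ175 mice and 4.01 in zQ175:Msh3-/- mice. Its range in WT, from 2.71 to 4.38 TPM, overlapped that of each other genotype.

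Exo1 was barely detected, and Pcna was abundant. Exo1 encodes the exonuclease that removes the nicked strand in dividing cells, and it lies at chr1:175880581-175913489 on the plus strand (ENSMUSG00000039748). It had 4 to 11 counts in WT, 5 to 12 in Msh3-/-, 2 to 17 in zQ175 and 7 to 17 in zQ175:Msh3-/-. Its median TPM was 0.251 in WT, 0.344 in Msh3-/- mice, 0.279 in zQ175 mice and 0.53 in zQ175:Msh3-/- mice. At this depth a difference of Exo1 smaller than its wide interval was not detectable. Pcna encodes the sliding clamp that activates the MutL endonuclease and also serves in replication, and it lies at chr2:132249162-132253314 on the minus strand (ENSMUSG00000027342). Its TPM ran from 49.2 to 58.5 in WT with a median of 54.5, from 51.3 to 56.1 in Msh3-/- with a median of 54.0, from 54.5 to 66.1 in zQ175 with a median of 59.8, and from 53.6 to 63.5 in zQ175:Msh3-/- with a median of 58.4. The 4 ranges of Pcna overlapped, with WT female2 lowest and zQ175 male4 highest.

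**Figure D2:**
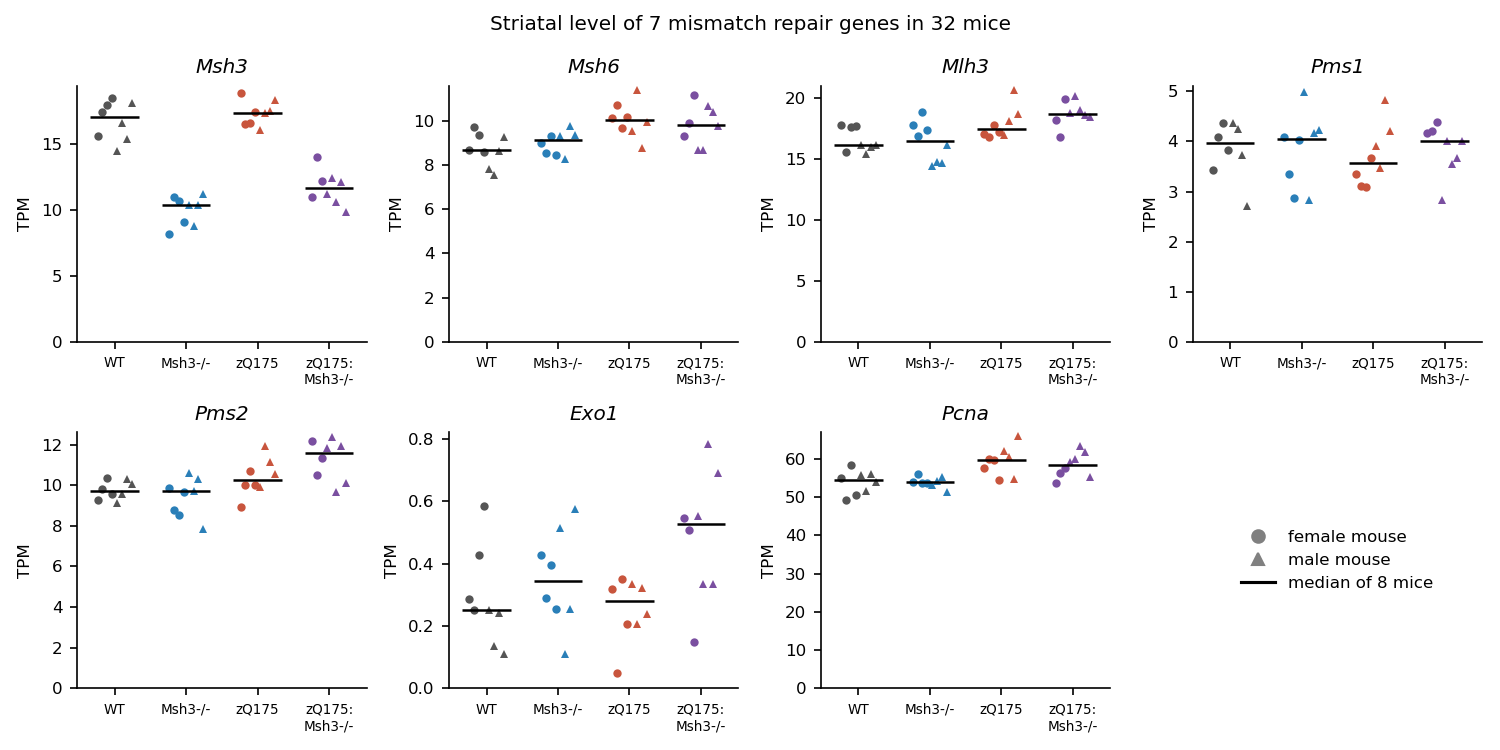
TPM of each of the 7 genes in each of the 32 mice by genotype, with circles for females, triangles for males and bars for medians of 8 mice. For Msh3 the groups with the gene intact separated from the knockout groups, and for the other 6 genes the groups overlapped.

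The steps of the pathway differed widely in RNA level in WT striatum. Ordered by median TPM, Pcna came first, then Msh3, Mlh3, Pms2, Msh6, Pms1 and Exo1. Pcna was above 79.8% of tested genes, Msh3 above 52.5%, Mlh3 above 51.4%, Pms2 above 40.9%, Msh6 above 38.8%, Pms1 above 26.9% and Exo1 above 0.71%, against a median over all tested genes of 15.1 TPM. In the other 3 genotypes the order was the same except that Mlh3 stood above Msh3. Neighbours in the WT order were compared within each mouse with an exact 2-sided sign-flip test, whose smallest possible p for 8 mice is 0.0078. The TPM of Pcna was 3.18 times that of Msh3 (median ratio). Mlh3 was 1.66 times Pms2, Pms2 was 1.11 times Msh6, Msh6 was 2.27 times Pms1, and Pms1 was 15.8 times Exo1. The first of each of these pairs was higher in 8 of 8 mice, and each pair was called at adjusted p = 0.0094. The order was taken from the same mice in which the pairs were tested, so these tests are not independent of it. In TPM, Msh3 and Mlh3 did not differ beyond their spread, with Msh3 higher in 5 of 8 mice and an exact p of 0.82.

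The order below Pcna depends on how length is counted. With CPM per kilobase of the union of all annotated exons, in place of TPM, the order in WT was Pcna, Mlh3, Msh6, Msh3, Pms2, Pms1 and Exo1. The mean log2 ratio of Pms2 to Msh6 was 0.17 in TPM and -1.03 on that scale, and that of Msh3 to Mlh3 was 0.01 and -1.19. On that scale the first gene of each of these pairs was higher in 0 of 8 mice, with a sign-flip adjusted p of 0.0078 for each. So only the places of Pcna at the top and of Pms1 and Exo1 at the bottom were the same on both scales. Between mice of a genotype, Pcna was the steadiest of the 7, with a standard deviation of 0.0747 on the log2 CPM scale, followed by Mlh3 at 0.0925, Pms2 at 0.0991, Msh6 at 0.112, Msh3 at 0.116, Pms1 at 0.186 and Exo1 at 0.397. The median over all tested genes was 0.136.

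Genes whose products act as alternatives, or in succession, were compared as ratios within each mouse, which are free of library scaling. The ratio of Msh6 to Msh3 was higher in knockout mice, where Msh3 is the gene removed, and the other ratios were not called. The TPM ratio of Msh6 to Msh3 ran from 0.453 to 0.561 in WT with a median of 0.531, and from 0.777 to 1.10 in Msh3-/- with a median of 0.913. In zQ175 it ran from 0.500 to 0.656 with a median of 0.582, and in zQ175:Msh3-/- from 0.696 to 1.0 with a median of 0.853. Each knockout group lay wholly above its reference group. In an exact 2-sided permutation test of 8 mice against 8, the mean log2 ratio was 0.80 higher in Msh3-/- than in WT and 0.54 higher in zQ175:Msh3-/- than in zQ175. Both reached the smallest p such a test can give, 0.000155, which is 0.0012 after adjustment over 16 tests. With CPM per kilobase these differences were 1.11 and 0.88, with the same p. Msh3, the gene removed by design, is the denominator, so a higher ratio in knockout mice was set by the design. These p-values are thus no further evidence about Msh6, which itself was not called with Msh3 loss. Remaining Msh3 RNA is not a measure of intact message, so the knockout ratios do not give a balance of intact MutS messages.

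With the zQ175 allele, the log2 ratio of Msh6 to Msh3 was 0.15 higher in zQ175 than in WT (exact permutation p = 0.0300, adjusted p = 0.120), where 5 of 8 zQ175 mice lay above every WT mouse. On the Msh3-null background the sign was the other way. There the difference was -0.11 in zQ175:Msh3-/- against Msh3-/- (exact permutation p = 0.243, adjusted p = 0.572). The ratio of Mlh3 to Pms2, which sets the repeat-related endonuclease subunit against the general repair subunit, had medians of 1.66 in WT, 1.80 in Msh3-/- mice, 1.72 in zQ175 mice and 1.62 in zQ175:Msh3-/- mice. The ratio of Pms1 to Pms2 had medians of 0.409 in WT, 0.409 in Msh3-/- mice, 0.371 in zQ175 mice and 0.354 in zQ175:Msh3-/- mice. Neither MutL ratio was called in the exact test in any of its 4 comparisons, and in TPM none of these had an unadjusted p under 0.05. With CPM per kilobase, Pms1 to Pms2 in zQ175:Msh3-/- against Msh3-/- had a difference of -0.21 (exact permutation p = 0.0277, adjusted p = 0.111). The ratio of Exo1 to Pcna had medians of 0.00479 in WT, 0.00618 in Msh3-/- mice, 0.00454 in zQ175 mice and 0.00917 in zQ175:Msh3-/- mice, and its largest difference, 1.0 on the log2 scale in zQ175:Msh3-/- against zQ175, had an exact permutation p of 0.0225 and an adjusted p of 0.120. With CPM per kilobase in place of TPM that difference was 0.37 (exact permutation p = 0.250), and the difference in zQ175 against WT went from -0.32 to 0.08. Exo1 ratios rest on a few counts per mouse.

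**Figure D3:**
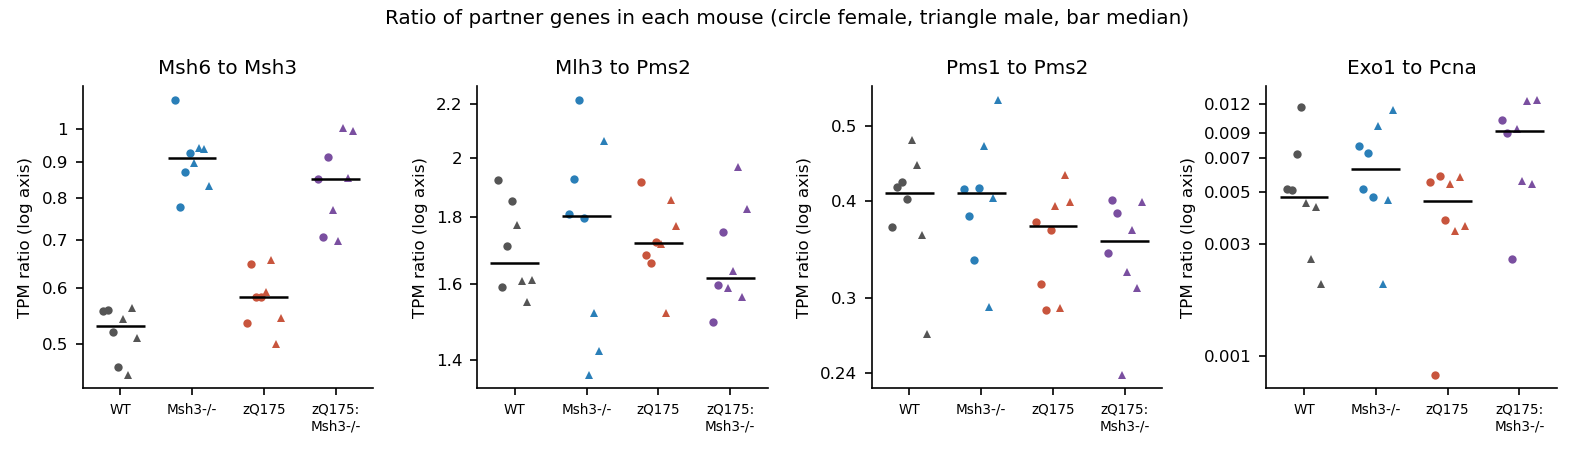
TPM ratios of Msh6 to Msh3, Mlh3 to Pms2, Pms1 to Pms2 and Exo1 to Pcna in each of the 32 mice on log axes, with circles for females, triangles for males and bars for medians of 8 mice. The ratio of Msh6 to Msh3 separated knockout groups from their references, and the other ratios overlapped.

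The expanded Htt allele went with small rises in Msh6, Mlh3 and Pms2. Averaged over the Msh3 genotypes, 16 mice against 16, 3 of the 7 genes were called, all of them higher, where 39.6% of all tested genes were called. None of the 7 was called at a fold change of at least 1.2 by edgeR, DESeq2 or limma on TPM, while 5 had an unadjusted p under 0.05 in edgeR, and 13.7% of all tested genes were called at that size. The share of called members is therefore near the background. Of all tested genes 6570 were called, and 2276 of these reached 1.2-fold, so called changes below that size were common. The median log2 fold change was 0.10 over the 7 members and 0.01 over all tested genes.

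Pms2 had a log2 fold change of 0.12 (95% interval 0.05 to 0.20, adjusted p = 0.0074) with zQ175 averaged over the Msh3 genotypes. Mlh3 had a log2 fold change of 0.10 (95% interval 0.03 to 0.17, adjusted p = 0.0142). These MutL genes were called whichever of the 32 mice was left out. In females alone, with fewer mice, neither was called, and the log2 fold change was 0.03 for Mlh3 (adjusted p = 0.718) and 0.11 for Pms2 (adjusted p = 0.157). Males alone gave 0.17 for Mlh3 (adjusted p = 0.0022) and 0.15 for Pms2 (adjusted p = 0.0601). Msh6 had a log2 fold change of 0.11 (95% interval 0.02 to 0.19, adjusted p = 0.0357), and its call depended on single mice. It was lost when Msh3-/- female2, female4 or male2, WT male1 or male2, zQ175 female2 or male2, or zQ175:Msh3-/- female3, male3 or male4 was left out, with adjusted p from 0.0501 to 0.0715. DESeq2 gave Msh6 an adjusted p of 0.0778, and over all alternatives it ran from 0.0034 to 0.254. Pcna had a log2 fold change of 0.07 (95% interval 0.01 to 0.12, adjusted p = 0.0602). It was called by limma on log2(TPM + 0.1), with a log2 fold change of 0.13 and an adjusted p of 0.00044. Leaving out WT female3 brought the adjusted p of Pcna to 0.0232, zQ175 female4 to 0.0407, zQ175 male3 to 0.0357, zQ175:Msh3-/- female1 to 0.0463 and zQ175:Msh3-/- male5 to 0.0428. Exo1 had a log2 fold change of 0.34 with a wide 95% interval, from 0.01 to 0.68 (adjusted p = 0.0988). Without zQ175 female2 it was 0.40 with an adjusted p of 0.0433. Exo1 in males alone had one of 0.65 (adjusted p = 0.0366), while DESeq2 gave 0.35 (adjusted p = 0.296). Over all alternatives the log2 fold change of Exo1 ran from 0.05 to 0.65, with adjusted p from 0.0366 to 0.705. Msh3 had a log2 fold change of 0.06 (adjusted p = 0.262) and Pms1 of -0.04 (adjusted p = 0.673). For Msh3, limma on log2(TPM + 0.1) gave 0.14 with an adjusted p of 0.0226, a fit in which both the unit and the test differ.

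When the Msh3 genotypes were taken apart, different members passed. In zQ175 against WT, 1 of the 7 was called, Msh6, with a log2 fold change of 0.15 (95% interval 0.04 to 0.27, adjusted p = 0.0447), where 26.5% of all tested genes were called and 11.6% at a fold change of at least 1.2. DESeq2 gave an adjusted p of 0.0924 for Msh6 here, and over all alternatives it ran from 0.0147 to 0.358. The call was also lost without WT female1, female4, male1, male2 or male3, or without zQ175 female1, female2, female3, female4, male2 or male4, with adjusted p from 0.0519 to 0.122. Without WT female3, Pcna was called as well (adjusted p = 0.0370), and limma on log2(TPM + 0.1) gave it a log2 fold change of 0.14 (adjusted p = 0.0079). With intact Msh3 the log2 fold change of Mlh3 was 0.03 (adjusted p = 0.722; -0.05 in females alone, adjusted p = 0.677) and that of Pms2 was 0.08 (adjusted p = 0.315).

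In zQ175:Msh3-/- against Msh3-/-, 2 of the 7 were called, both MutL genes, where 24.1% of all tested genes were called and 10.6% at a fold change of at least 1.2. Mlh3 had a log2 fold change of 0.17 (95% interval 0.08 to 0.26, adjusted p = 0.0055) and Pms2 of 0.17 (95% interval 0.07 to 0.28, adjusted p = 0.0148). Without Msh3, Msh6 had a log2 fold change of 0.06 (adjusted p = 0.497) with the zQ175 allele. The remaining Msh3 RNA had one of 0.13 (adjusted p = 0.133), and limma on log2(TPM + 0.1) gave it 0.23 (adjusted p = 0.0144) and Pcna 0.11 (adjusted p = 0.0365). In females alone neither MutL gene was called here (adjusted p of 0.398 for Mlh3 and 0.279 for Pms2), and in males alone Pms2 was not (adjusted p = 0.0790). With no low-count filter the call of Pms2 was lost as well (log2 fold change 0.17, adjusted p = 0.0545).

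The difference between these backgrounds was itself tested, as the interaction of the zQ175 allele and Msh3 loss. No gene was called by edgeR in the interaction, 0.0% of those tested, while 737 had an unadjusted p under 0.05, fewer than the 830.5 that chance gives. For Mlh3 the interaction was 0.14 on the log2 scale (95% interval 0.01 to 0.28, adjusted p = 0.999), for Pms2 0.10 (adjusted p = 0.999) and for Msh6 -0.09 (adjusted p = 0.999). Mlh3 was thus the only member with an unadjusted p under 0.05, and DESeq2 and limma on TPM called none of the 7. The effect of the zQ175 allele on these genes was not shown to differ with Msh3 genotype.

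No other member was called with loss of Msh3. Averaged over the Htt genotypes, the log2 fold change was 0.00 for Msh6 (95% interval -0.08 to 0.08), 0.01 for Mlh3 (95% interval -0.05 to 0.08), -0.04 for Pms1 (95% interval -0.19 to 0.10), 0.01 for Pms2 (95% interval -0.07 to 0.08), 0.16 for Exo1 (95% interval -0.17 to 0.50) and -0.02 for Pcna (95% interval -0.08 to 0.04). For the 5 of these other than Exo1, the intervals exclude a change of 1.2-fold in either direction. None of the 6 was called by edgeR, DESeq2 or limma on TPM in any of the 3 comparisons of Msh3 loss. None had an unadjusted p under 0.05 in edgeR. Over all tested genes edgeR called 0.00602% in each of these comparisons, Msh3 alone.

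**Figure D4:**
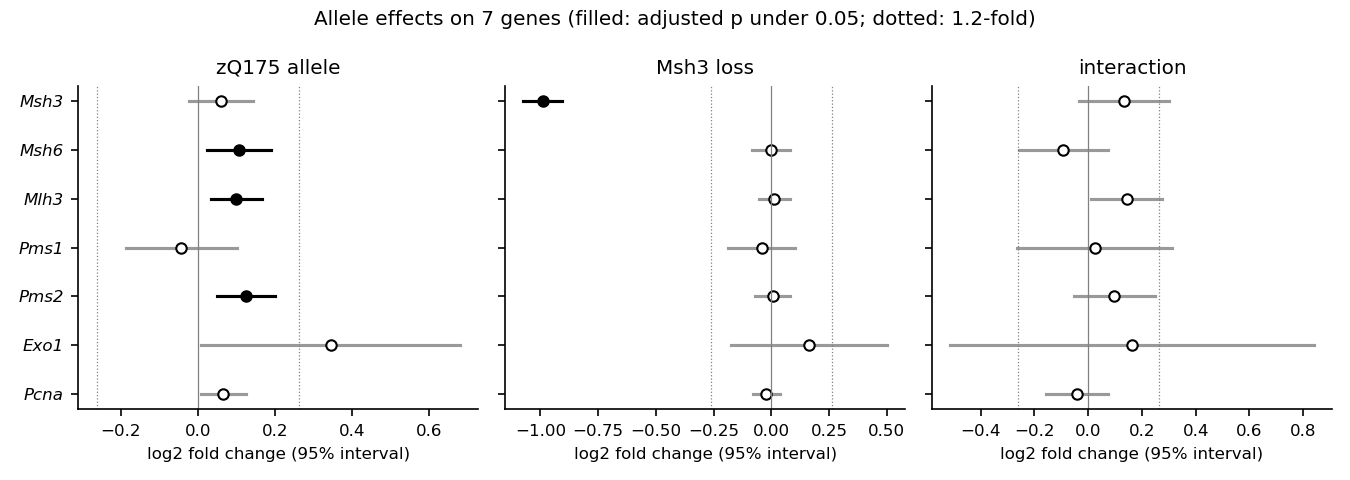
Log2 fold changes of the 7 genes with 95% intervals for the zQ175 allele averaged over Msh3 genotypes, for Msh3 loss averaged over Htt genotypes and for their interaction, from edgeR over 32 mice. Filled points have an adjusted p under 0.05 and dotted lines mark 1.2-fold, and only Msh3 under Msh3 loss lies beyond them among the called genes.

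Htt, the gene that carries the expanded repeat, was lower with the zQ175 allele, with a log2 fold change of -0.32 in zQ175 against WT (adjusted p = 4.8e-08) and of -0.17 in zQ175:Msh3-/- against Msh3-/- (adjusted p = 0.0016). Limma on TPM did not call Htt in the latter comparison, while DESeq2 did. Its median TPM was 32.1 in WT, 31.5 in Msh3-/- mice, 27.3 in zQ175 mice and 30.7 in zQ175:Msh3-/- mice. The interaction for Htt was 0.15 on the log2 scale (adjusted p = 0.999), and so the smaller fall without Msh3 was not called. How reads from the modified first exon of the knock-in allele map to the mouse gene was not tested.

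Promoters are printed for Msh6 and Mlh3, members called with the zQ175 allele that have a window before a transcription start with no annotated exon. A second Mlh3 window, chr12:85270592-85270841, holds 8 exon bases of Mlh3 and is not printed. Each window has 250 bases, from RefSeq in GRCm38.p6, in the direction of transcription, with motif matches in capitals. The motifs, searched on both strands, were the GC box GGGCGG, the CCAAT box CCAAT and an E2F-like motif TTTNGCGC. They occurred at least once in 32.7%, 33.8% and 1.13% of 32851 promoter windows of that length. Msh6 is chr17:87974800-87975049 on the plus strand and Mlh3 is chr12:85270600-85270849 on the minus strand.
Msh6 promoter: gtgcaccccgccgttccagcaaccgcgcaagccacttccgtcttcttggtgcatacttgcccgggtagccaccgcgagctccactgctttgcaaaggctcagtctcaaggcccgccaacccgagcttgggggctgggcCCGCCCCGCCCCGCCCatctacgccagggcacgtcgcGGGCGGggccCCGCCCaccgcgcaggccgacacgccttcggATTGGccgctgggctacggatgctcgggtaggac
Mlh3 promoter: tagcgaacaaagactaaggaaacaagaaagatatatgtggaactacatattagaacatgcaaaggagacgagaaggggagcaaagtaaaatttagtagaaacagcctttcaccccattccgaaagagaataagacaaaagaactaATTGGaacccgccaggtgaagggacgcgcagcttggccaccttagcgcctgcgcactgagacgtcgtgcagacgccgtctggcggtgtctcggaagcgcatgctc
The Msh6 window held 5 GC boxes, some of them overlapping, and 1 CCAAT box. The printed Mlh3 window held no GC box and 1 CCAAT box. The E2F-like motif was found in neither.

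The wider repair machinery was read from a list of 17 other mismatch repair factors, covering clamp loading, single-strand binding, resynthesis, ligation and meiotic MutS genes. With zQ175 averaged over the Msh3 genotypes, 7 of its 15 tested genes rose and 1 fell, where 39.6% of all tested genes were called, with a median log2 fold change of 0.06 against 0.01 over all tested genes. DESeq2 called 7 of the 15 and limma on TPM 11, and whether the list exceeds the background share was not tested. Lig1, the ligase that seals the repaired strand, had a log2 fold change of 0.29. Rfc3, a clamp loader subunit, had one of 0.23, and Rfc2, another, one of 0.13. Rfc5, a further subunit of the clamp loader, fell by 0.44 on the log2 scale, so subunits of the same loader were called in opposite directions. The other called genes were Rpa1 at 0.11 and Rpa2 at 0.13, subunits of the single-strand binding protein of the nucleus, Pold1 at 0.12, the catalytic subunit of polymerase delta, and Ssbp1 at 0.12, the mitochondrial single-strand binding protein. In zQ175 against WT 4 rose and 1 fell, and in zQ175:Msh3-/- against Msh3-/- 4 rose and 1 fell, with medians of 0.05 and 0.09 on the log2 scale, where 26.5% and 24.1% of all tested genes were called. Against these 5 calls each, DESeq2 gave 5 and 2, and limma on TPM 6 and 9. Hmgb1 had the highest level of the list in WT, with a median of 193 TPM. The meiotic MutS genes Msh4 and Msh5 were not tested, with 0 to 3 and 1 to 10 counts per mouse.

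A list of 8 genes outside mismatch repair that are known to modify CAG repeat stability or age at onset was also read. With zQ175 averaged over the Msh3 genotypes, 3 rose and 1 fell, where 39.6% of all tested genes were called, with a median log2 fold change of 0.08. Here too the list was not tested against that share. Xpa, a nucleotide excision repair protein, had a log2 fold change of 0.25 (95% interval 0.13 to 0.37), Rrm2b, a ribonucleotide reductase subunit, one of 0.21, and Fen1, the flap endonuclease, one of 0.17. Polb, the base excision repair polymerase and the gene of the list with the highest WT level (median 44.9 TPM), fell by 0.09. Neil1, a DNA glycosylase, had the lowest WT level, with a median of 5.00 TPM. In zQ175 against WT and in zQ175:Msh3-/- against Msh3-/- 2 rose and 0 fell in each, where 26.5% and 24.1% of all tested genes were called, with medians of 0.11 and 0.08. With DESeq2, 4 genes of the list were called in the averaged comparison, and with limma on TPM 5.

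No gene of either list was called by edgeR, DESeq2 or limma on TPM under Msh3 loss or in the interaction. Unadjusted p under 0.05 was reached in edgeR by 0, 1, 0 and 1 of the 15 repair factors in Msh3-/- against WT, zQ175:Msh3-/- against zQ175, their average and the interaction. The same counts for the 8 expansion modifiers were 1, 0, 0 and 1. Called changes in these lists thus went with the zQ175 allele and not with Msh3 loss, as they did over all tested genes. Over all tested genes edgeR called 39.6% with zQ175 averaged, 0.00602% in each comparison of Msh3 loss and 0.0% in the interaction.

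**Figure D5:**
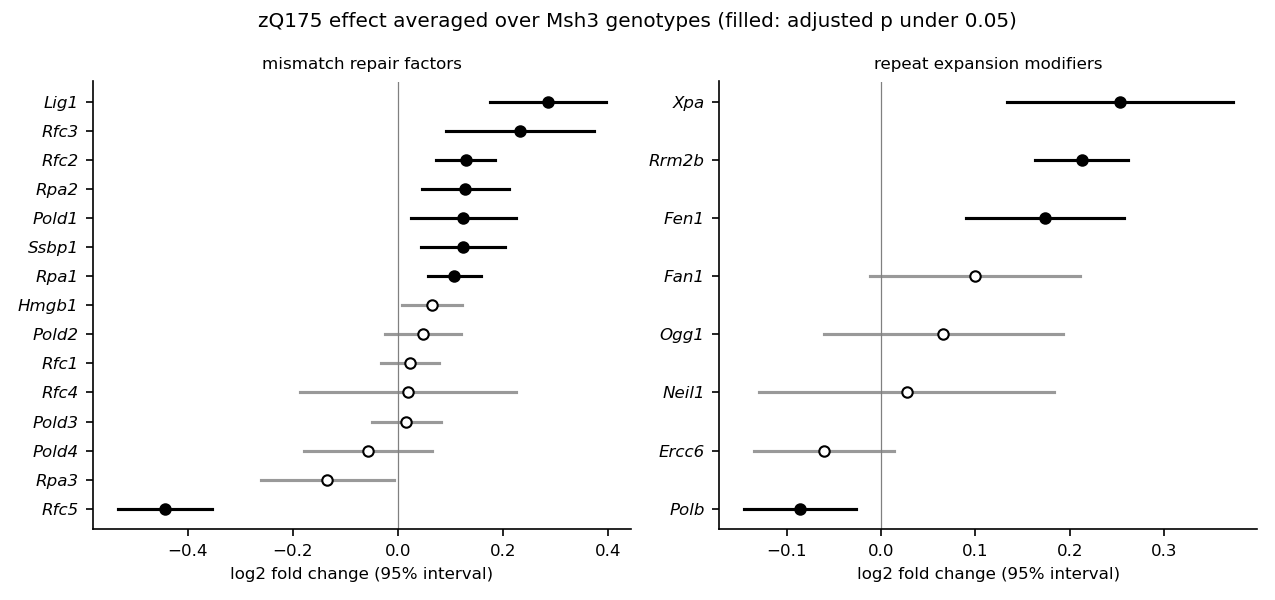
Log2 fold changes with 95% intervals for the zQ175 allele averaged over Msh3 genotypes, for 15 tested mismatch repair factors (left) and 8 repeat expansion modifiers (right), from edgeR over 32 mice. Filled points have an adjusted p under 0.05, and Rfc5 stands apart on the lower side.

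Whether the members vary together from mouse to mouse was asked after removing the genotype means. None of 21 pairs was called by permutation over 32 mice, on log2 CPM, on log2 TPM or after removing sex means as well, and on log2 CPM 0 values of r and 1 of rho had an unadjusted p under 0.05. The pair with the highest coefficient was Pms1 and Exo1, with Pearson's r of 0.38 (permutation p = 0.0623, adjusted p = 0.654) and Spearman's rho of 0.43 (permutation p = 0.0181, adjusted p = 0.380), and with r of 0.35 without the 2 mice farthest from the median. After removing sex means as well, r was 0.20 and rho 0.27 for this pair, and on log2 TPM they were 0.30 and 0.22. Msh3 and Mlh3 had r of 0.37 (permutation p = 0.0610, adjusted p = 0.654) and rho of 0.32 (permutation p = 0.10, adjusted p = 0.924), and r of 0.32 without 2 mice, but r was -0.01 on the log2 TPM scale. Genes of adjacent steps thus gave no shared mouse-to-mouse pattern that passed the test.

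The genes that varied most like each member were listed as well. By Pearson's r of genotype-centred log2 CPM over 32 mice, genes among the nearest of those tested were Gm45592 (0.65) and Cdca2 (0.60) for Msh3. The nearest were Smarcad1 (0.68), Gigyf2 (0.67) and Scyl2 (0.65) for Msh6. For Mlh3 they were Copg2 (0.67), Ufl1 (0.65) and Dgkg (0.65), for Pms1 Enox2 (0.72), 1500035N22Rik (0.67) and Gab2 (0.66), and for Pms2 Gpatch3 (0.66), Stx3 (0.64) and Gm29367 (0.62). For Exo1 they were Ccdc96 (0.69), Cdca7 (0.67) and Des (0.63), and for Pcna Gstm7 (0.73), Ctdsp1 (0.72) and Pald1 (0.71). These are among the highest of 16610 values for each member and are given as a description.

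The tissue markers that move with the zQ175 allele are given beside these results. Of 8 markers of striatal spiny neurons, 7 fell in each zQ175 comparison, by 0.77 to 1.34 on the log2 scale in the averaged one, and Tac1, at 0.03, was not called. Their summed level, led by Ppp1r1b, had a mean of 7152 CPM in WT, 6960 in Msh3-/- mice, 3663 in zQ175 mice and 3732 in zQ175:Msh3-/- mice. In the averaged comparison 4 of 5 astrocyte markers, 4 of 5 microglia markers, 3 of 4 endothelial markers and 1 of 5 oligodendrocyte markers fell, where 39.6% of all tested genes were called and 3106 of 16610 fell. DESeq2 gave the same counts of calls, and limma on TPM called 1, 2, 3 and 3 of them, respectively. None of the 2 precursor markers was called by edgeR, DESeq2 or limma on TPM, nor had any an unadjusted p under 0.05. Cortex markers, led by Slc17a7, were present in every mouse, from 33.0 to 623 CPM summed, with means of 168 in WT, 209 in Msh3-/- mice, 252 in zQ175 mice and 319 in zQ175:Msh3-/- mice. None of the 4 was called in the averaged comparison by edgeR, DESeq2 or limma on TPM, with 1 unadjusted p under 0.05 in edgeR, and their median log2 fold change was 0.58. With the summed cortex markers as a term in the fit, Msh6 had a log2 fold change of 0.10 in the averaged comparison (adjusted p = 0.0646), Mlh3 of 0.09 (adjusted p = 0.0308) and Pms2 of 0.11 (adjusted p = 0.0234). Choroid plexus markers, led by Ttr, varied up to 2895 CPM between mice, with medians of 110, 145, 55.4 and 69.3 CPM in WT, Msh3-/-, zQ175 and zQ175:Msh3-/-. None of the 3 was called by edgeR, DESeq2 or limma on TPM, and none had an unadjusted p under 0.05.

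Exo1 and Pcna are known to serve dividing cells, so markers of division were read as well. Their summed level, led by Mki67, had a mean of 9.94 CPM in WT, 8.28 in Msh3-/- mice, 9.20 in zQ175 mice and 11.6 in zQ175:Msh3-/- mice. Of the 4 that were tested, edgeR called Birc5 in zQ175:Msh3-/- against Msh3-/-, with a log2 fold change of 0.73 (adjusted p = 0.0435), and 24.1% of all tested genes were called there. DESeq2 called 0 of the 4 in that comparison and limma on TPM 2, and 2 had an unadjusted p under 0.05 in edgeR. In zQ175 against WT edgeR, DESeq2 and limma on TPM called none of them, and none had an unadjusted p under 0.05. With zQ175 averaged over the Msh3 genotypes, edgeR and DESeq2 called none of them and limma on TPM 2. All 4 log2 fold changes were above 0 there, with a median of 0.27, and 1 gene had an unadjusted p under 0.05 in edgeR (smallest adjusted p = 0.0555). The part of any of these marker shifts in the rises of Msh6, Mlh3 and Pms2 was not tested beyond the fit with cortex markers.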

How the data were processed

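Striatal RNA of 32 mice was measured by polyA-selected RNA-seq, and no sample was left out (0 unused sample columns). Raw gene counts, as whole numbers, were deposited by the authors, with a table named FPKM. Each column of that table adds up to the same total as TPM values do, so it was read as TPM the authors deposited. The reads were mapped to GRCm38.p6 per the labels. Aligner, counter, annotation and use of strand are not given in the sources used here.

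Counts were fitted with edgeR 4.0.16 (quasi-likelihood, robust, TMM, filterByExpr) in R 4.3.3, all 4 groups in one fit, with p adjusted by Benjamini-Hochberg over 16610 genes. A call is an adjusted p under 0.05, or that together with a fold change of at least 1.2. Total counts per mouse were 12359347 to 25030335, and the common coefficient of biological variation was 0.0985. CPM values are counts scaled by TMM library size. Implied length is the count divided by TPM, scaled per mouse on genes with a single transcript in GENCODE M21, for genes with at least 20 counts in every mouse, tested with limma 3.58.1. That measure and the fit with cortex markers were chosen after seeing the data. The fits were also run on simulated data, and the outcome is not given here. Ratios and neighbouring levels were tested by exact 2-sided permutation, and correlations with 100000 permutations within genotype. Tables were made in Python 3.11.15 with pandas 2.3.3, scipy 1.17.1 and numpy 2.4.6, and plots with matplotlib 3.10.9.

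Named genes are the members, Htt, every list gene called in any comparison or giving a list's highest or lowest level, of which the main ones are printed, and the 3 genes nearest each member. Some genes that these rules gave are not reported here, and list counts are without them. The members and lists were chosen with earlier results of these data known. Alternatives were DESeq2 1.42.0, RLE size factors, no low-count filter, sex as a term, a replicate block, only the groups compared, limma on log2 TPM with a pseudocount of 0.1 or 1 with and without a minimum mean of 0.1 TPM, each sex alone, each mouse left out in turn, summed cortex markers as a term, other units for levels and ratios, and genotype-by-sex means for correlations.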

Additional observations from a re-analysis of the deposited data

Results flagged for a closer look

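Each of 48 sets of 8 mice (the 7 genes, the 4 ratios and the implied Msh3 length, by genotype) was searched for a mouse at the edge whose gap to the next mouse was above Dixon's 95% critical value, as a share of the whole range. Chance gives about 1 in 20 sets, or 2.4 here, and 4 sets passed, all of them with a low mouse. In Msh3-/-, male4 had the lowest Pms2 level, 11.5 CPM against 13.9 to 15.6 in the other 7 mice, a gap of 0.637 of the range of log2 CPM. In zQ175, female2 had the lowest Exo1 level, 0.157 CPM against 0.424 to 0.735, a gap of 0.643 of the range of log2 CPM. The same mouse had the lowest ratio of Exo1 to Pcna in TPM, 0.000831 against 0.00342 to 0.00587, a gap of 0.723 of the log2 range. In zQ175:Msh3-/-, male1 had the lowest Pms1 level, 3.25 CPM against 3.85 to 4.39, a gap of 0.567 of the range of log2 CPM.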

How the results depend on the processing

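The loss of Msh3 RNA was called under every alternative tried. Its shorter implied length was called with a minimum of 50 counts and without any single mouse, and no other alternative was run for it. In the averaged zQ175 comparison the rises of Mlh3 and Pms2 kept their sign, and their calls in 11 and 10 of 12 fits, while Msh6 was called in 7 of 12. Of the fold changes of single members, 504 values were unchanged without leaving out a mouse, 19 lost the call and 16 gained one. Unchanged values kept their call or lack of one. They also kept direction, or were not called and changed sign by less than their standard error. A further 18 that were not called changed sign by more than their standard error. With a mouse left out 1540 were unchanged in this sense, 21 lost the call and 7 gained one. For the count of members called, in zQ175 against WT (1 in edgeR as reported), DESeq2, RLE size factors, no low-count filter, only the groups compared, the cortex term, males alone and females alone gave 0, and limma on log2 TPM gave 2 with either pseudocount and with no filter. Leaving out a mouse gave 0 to 2. In zQ175:Msh3-/- against Msh3-/- (2 as reported), no low-count filter and males alone gave 1, females alone gave 0 and limma with either pseudocount gave 4, while the replicate block and limma with no filter gave 3. In the averaged comparison (3 as reported), limma gave 5 in each of its versions, DESeq2, no low-count filter, the cortex term and males alone gave 2, females alone gave 0 and leaving out a mouse gave 2 to 4. At 1.2-fold (0 as reported), males alone gave 1 and leaving out a mouse 0 to 1.

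Over all genes, males alone gave 1803 calls and females alone 2740 in zQ175 against WT, 2495 and 1450 in zQ175:Msh3-/- against Msh3-/-, and 4246 and 3984 in the averaged comparison. At 1.2-fold, males alone gave 1180 in zQ175 against WT and females alone 1067 in zQ175:Msh3-/- against Msh3-/-. The sexes alone have fewer samples. In Msh3-/- against WT (1 as reported), DESeq2 gave 2, males alone gave 3, also at 1.2-fold, and leaving out a mouse gave 1 to 2. The mean log2 ratio of Pms2 to Msh6 in WT was -1.03 per kilobase of union exon length, reversed from TPM, and that of Msh3 to Mlh3 was -1.19. Both scales used the same WT mice and, for ratios within a mouse, differ in the length by which counts are divided. For the differing counts of calls, apart from fewer samples in each sex alone, the cause was not tested.

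Mice of the same sex and number in different groups did not deviate together (45 pairs, median r -0.01, 8 of them over 0.1), so the numbers do not pair the mice. With a replicate block the remaining Msh3 RNA in zQ175:Msh3-/- against Msh3-/- had a log2 fold change of 0.16 (adjusted p = 0.0443; 0.0144 to 0.391 over its alternatives), and no other call of a member changed. Exo1 could not be tested in females alone. Depth limits Exo1, with 2 to 17 counts per mouse, and Pms1, with 43 to 105.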
